A study of Saccharomyces cerevisiae with 12 samples.

Results

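Replication origins were examined for DNA ends covalently linked to topoisomerase II (Top2) in the budding yeast Saccharomyces cerevisiae. The reference annotation (R64, also called Cer3) lists 352 nuclear origins, named ARS for autonomously replicating sequence. Leaving out the 19 on chromosome III, where the genome build of the maps carries added sequence, gave 333 origins, each taken as its midpoint with 1000 bp on both sides. Of these, 313 had at least 50% of their central 500 bp open to mapping and were evaluated, and 14 of the 20 that were not lay within 25 kb of a chromosome end. The list came from the annotation, and the mask that set which origins could be evaluated was made of long runs without a hit in any library.

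The maps came from CC-seq, a method that isolates DNA fragments with a protein bound to the 5′ end and records each end as a hit on the Watson or the Crick strand. All 12 libraries were from BY4741 haploid cells whose drug sensitivity was raised by a pdr1DBD-CYC8 cassette, a fusion that represses drug export genes. The 3 strains were pdr1, with no further deletion, pdr1sae2 and pdr1mre11, the last lacking the Mre11 nuclease and pdr1sae2 lacking its cofactor Sae2. Vegetative cultures in YPD at 30 °C were left untreated (in DMSO, the drug's solvent) or exposed to 1 mM VP16 (etoposide) for 4 h, with 2 biological replicates of each of the 6 groups. The sources describe no synchronisation, and cells in which an origin was replicating cannot be told apart from the others. Libraries held 751850 to 3646842 hits, which gave a median of 34 hits per origin window in the shallowest and 136 in the deepest library, and no window had fewer than 9.

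Top2 passes one DNA duplex through a transient break in another and so removes the supercoils and intertwinings that transcription and replication create. VP16 stabilises the intermediate in which a Top2 subunit stays joined to the 5′ end on each strand, with the cuts 4 bases apart. Yeast origins lie mostly between genes, are rich in A and T, and are bound by the origin recognition complex (ORC) at a short T-rich element, the ARS consensus sequence, from which the DNA that unwinds and the loaded Mcm2-7 helicase lie to the 3′ side of the T-rich strand. The annotated origin features were 242 bp long at the median (51 to 1324 bp), and 132 of the evaluated origins (42.2%) lay between tandem genes, 105 (33.5%) between convergent genes, 53 (16.9%) between divergent genes, 20 (6.39%) within a reading frame and 3 beyond the last gene of a chromosome.

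Sequences are shown for the origin elements around which hits were counted and for the strongest cleavage sites, all 5′ to 3′ from the R64 RefSeq genome. The first 3 are origins long studied in yeast, on the T-rich (minus) strand, with the 11 bp match to the ARS consensus sequence in capitals, at chrIV:462536-462626, chrVI:167666-167756 and chrII:255011-255101.
ARS1: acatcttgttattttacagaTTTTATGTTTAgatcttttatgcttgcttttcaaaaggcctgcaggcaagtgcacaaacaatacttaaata
ARS606: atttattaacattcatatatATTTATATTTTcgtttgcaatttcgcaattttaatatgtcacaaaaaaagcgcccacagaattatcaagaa
ARS209: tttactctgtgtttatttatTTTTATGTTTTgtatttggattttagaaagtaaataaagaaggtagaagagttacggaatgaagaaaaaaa

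In ARS603.5 (chrVI:118698-118762, minus strand) and ARS433 (chrIV:1240924-1240999, plus strand) a strong cleavage site stood close to the match, and both are in capitals, the match first and then the 4-base overhang of the cleavage site. The overhang centre was 37.5 bp from the centre of the match in ARS603.5 and 48.5 bp in ARS433, on the 3′ side in each. Both were picked for a strong site 15 to 140 bp on the 3′ side, so the side was set by the choice.
ARS603.5 match and site: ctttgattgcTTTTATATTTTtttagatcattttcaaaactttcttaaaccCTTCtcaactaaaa
ARS433 match and site: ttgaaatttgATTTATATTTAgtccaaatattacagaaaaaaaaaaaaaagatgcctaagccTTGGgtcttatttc

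The strongest sites inside annotated origins are given on the plus strand with the overhang in capitals. The base before the capitals is the one 5′ of the Watson cut, and the complement of the base after them is the one 5′ of the Crick cut. They lie at chrXVI:331834-331873, chrVIII:214853-214892, chrVIII:215120-215159 and chrVIII:215154-215193, and the site of ARS414, the next outside repeated sequence, at chrIV:408100-408139.
site in ARS1617: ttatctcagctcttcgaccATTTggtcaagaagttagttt
site in ARS811: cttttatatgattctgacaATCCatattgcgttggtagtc
site in ARS811: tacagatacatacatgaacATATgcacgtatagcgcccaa
site in ARS811: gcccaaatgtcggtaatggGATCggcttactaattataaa
site in ARS414: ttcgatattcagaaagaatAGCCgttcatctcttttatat

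To ask whether origins held more or fewer Top2-linked ends than other DNA between genes, the density of hits in their central 500 bp was compared with that in 4995 windows of the same width centred on intergenic regions at least 2000 bp from any origin. In untreated cells the density at origins, relative to the mean of the mapped genome, ranged from 0.990 to 1.19 in the 6 libraries (mean 1.08), against 1.05 to 1.14 (mean 1.09) in other intergenic windows. With VP16 it ranged from 1.19 to 1.45 at origins (mean 1.32) and from 1.40 to 1.63 elsewhere (mean 1.50). Origins as a set were thus denser than the average of the genome under the drug, but less so than the other intergenic windows. The set held 20 origins within reading frames. It lay more often between convergent genes than the other windows (33.5 against 25.4%) and less often between divergent ones (16.9 against 26.6%). Other convergent windows had a mean VP16 density of 1.13 and other divergent ones 1.63. Against windows of the same arrangement, the mean log2 ratio with VP16 was 0.11 for convergent, -0.08 for tandem and -0.55 for divergent origins.

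The log2 ratio of origins to other intergenic windows was -0.05 and 0.12 in untreated pdr1, -0.08 and 0.04 in pdr1sae2, and -0.14 and 0.04 in pdr1mre11 (replicates 1 and 2). With VP16 it was -0.21 and -0.11, -0.12 and -0.11, and -0.17 and -0.35, respectively. All 6 VP16 libraries were below 0, whereas the untreated libraries fell on both sides of it, and the libraries of the treatments overlapped. The mean difference was -0.16, with a pooled SD of 0.10 between replicates. VP16 was the lower of the treatments in each of the 6 comparisons of same-numbered libraries, by -0.07 on average among first replicates and -0.26 among second ones. Same-numbered untreated and VP16 libraries did not deviate together, whereas those of different strains did. Counts of such pairs, here and below, are therefore descriptions and not 6 independent comparisons. The untreated replicate 2 libraries were the shallowest of their strains. With 500 bp on both sides of the midpoint the VP16 mean was -0.05 in place of -0.18. Intergenic regions that held an origin were longer than the others (median 643.5 against 354 bp). Wider windows take in more reading frame where regions are short, and the part of region length in this change was not tested. Values over the set of origins carry no p-value here, since origins of a library are not replicates. Over windows without repeated sequence the VP16 mean was -0.25 in place of -0.18. Among the 40 windows left out was a pair with very many hits, described with the single origins.

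**Figure D1:**
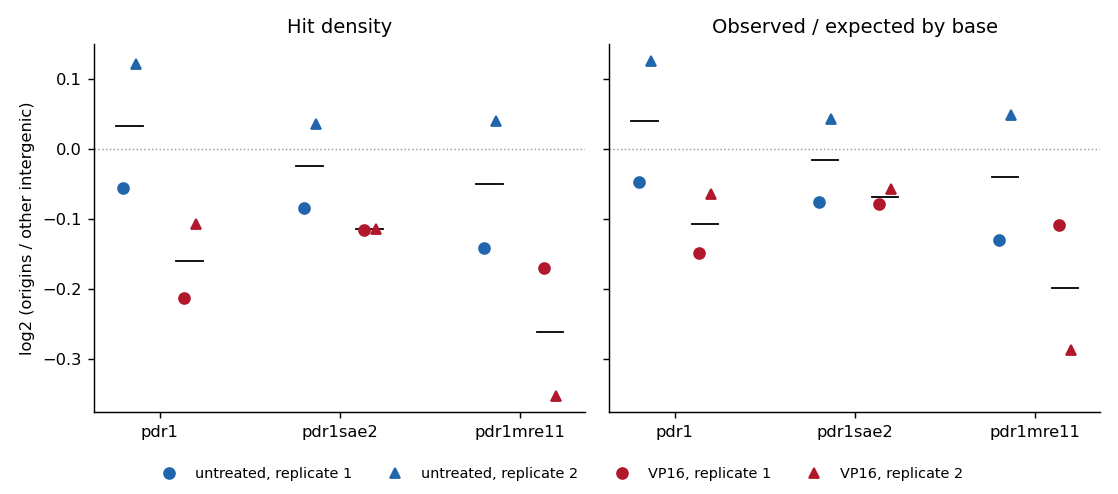
Log2 ratio of hit density (left) and of hits observed over those expected by base (right) in the central 500 bp of 313 origins to 4995 other intergenic windows, with 1 point per library (blue untreated, red VP16) and a bar at each group mean. On the left the VP16 points lie between -0.35 and -0.11 and the untreated points between -0.14 and 0.12, and on the right the VP16 points between -0.29 and -0.06.

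In profiles of 50 bp steps the lower density of origins lay near the centre of the windows. In VP16 libraries hits at origins peaked in the 50 bp just left of the midpoint, at 1.73 times the genome mean, and in other intergenic DNA in the 50 bp just right of it, at 1.94. Between 100 and 150 bp from the midpoint the density was 1.12 on the left and 1.11 on the right at origins, against 1.39 and 1.38 elsewhere, so that the peak at origins was both lower and narrower. Further out, origins were the denser in some steps, as from 300 to 250 bp on the left (1.29 against 1.17). From 350 to 400 bp on the right the values were 1.20 and 1.07. From 400 to 450 bp on the right, origins had a further maximum of 1.37, where other intergenic DNA had 1.02. It was not carried by repeated sequence (1.37 without such windows), and single origins contributed unequally. The step near ARS452 held 6.69% of all VP16 hits there and 0.596% of the untreated ones, and without it the density was 1.29.

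**Figure D2:**
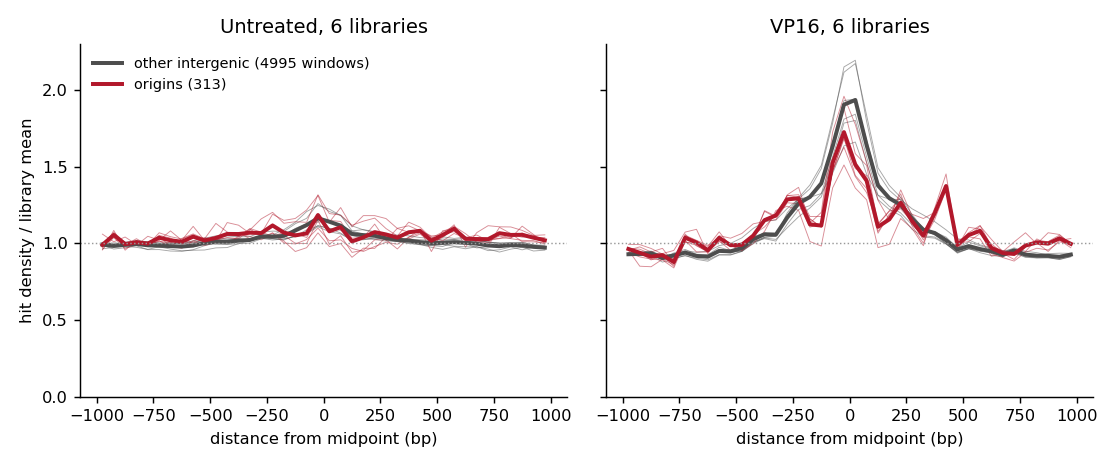
Hit density relative to the library mean in 50 bp steps across 1000 bp on both sides of 313 origin midpoints (red) and 4995 other intergenic midpoints (grey), with untreated libraries on the left and VP16 libraries on the right. Thin lines are single libraries and thick lines the mean of 6, which peaks at 1.73 for origins and 1.94 for other intergenic DNA with VP16.

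The contrast of centre and flank (within 100 bp against 500 to 1000 bp from the midpoint) gave a log2 ratio at origins of -0.04 to 0.23 in untreated libraries (mean 0.10) and 0.50 to 0.87 with VP16 (mean 0.65), higher in 6 of 6 pairs by 0.55 on average (SD 0.16). In other intergenic DNA the means were 0.20 and 0.92. When each position was counted once, whatever its number of hits, the difference at origins was 0.28.

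Because VP16 favours cleavage 3′ of a cytosine, the base composition of origins was considered. C made up 16.5% of positions in origin windows, 18.2% in other intergenic windows and 19.2% of all mapped DNA. The base 5′ of the cut was C for 18.7 to 20.4% of hits at origins in untreated libraries and for 43.9 to 61.2% with VP16, compared with 20.1 to 21.5% and 47.6 to 64.5% in other intergenic windows. The treatments did not overlap in this share at origins, and the mean difference was 35.95 percentage points (SD 5.04, higher in 6 of 6 pairs), or 22.8 with each position counted once. With the expected hits of each window taken from the genome-wide rate of its library at each 5′ base, the log2 ratio of origins to other intergenic windows was -0.01 on average in untreated and -0.12 in VP16 libraries (-0.29 to -0.06), a difference of -0.12 (SD 0.10, lower in 5 of 6 pairs). The VP16 mean was nearer to 0 after this adjustment than before it (-0.18), and all 6 VP16 libraries stayed below 0. Hits observed over expected averaged 1.407 at origins and 1.534 elsewhere with VP16. With rates by the bases on both sides of the cut these means were closer together, at 1.454 and 1.545.

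Hits were then aligned at the ARS consensus sequence, searched by that name as an 11 bp pattern with no mismatch on both strands. A match fell within 34.2% of the 500 bp origin windows (107 of 313), 4.67% of the other intergenic windows and 3.14% of 23501 windows tiling the genome. Inside the annotated features, 95 origins held a single match, 4 held more and 214 held none, and 285 matches lay in other intergenic regions. A missing match says only that the exact pattern is not there.

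With VP16 the hits around the match were unevenly placed. The density from 15 to 140 bp on the 3′ side of the T-rich strand, the side on which the helicase is loaded, was 1.54 to 2.16 times the genome mean (mean of 6 libraries 1.80), while on the 5′ side it was 0.925 to 1.13 (mean 1.06). The log2 ratio of 3′ to 5′ side was 0.85 and 0.62 in pdr1, 0.56 and 0.75 in pdr1sae2, and 0.94 and 0.87 in pdr1mre11. All 6 VP16 libraries lay above the untreated libraries, which ranged from 0.06 to 0.27 (mean 0.17). The mean difference was 0.60 (SD 0.09) and positive in 6 of 6 pairs, averaging 0.59 among first replicates and 0.60 among second ones. This measure was chosen after the profile around the match had been seen and has no test. Helicase loading and nucleosome positions were not measured in these libraries, and their part in the pattern was not tested.

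At matches in other intergenic regions the same log2 ratio was 0.15 to 0.28 with VP16 (mean 0.22) and 0.06 on average without it. There the VP16 density was 1.53 on the 3′ side and 1.31 on the 5′ side, below the origins on the 3′ side and above them on the 5′ side. The sides of the origin matches were similar in composition, with C at 15.8% of positions on the 5′ and 15.1% on the 3′ side, A or T at 68.3 and 69.7%, and reading frame bases at 9.06 and 6.45%. With rates by the base 5′ of the cut the treatment difference was 0.62, over intergenic bases alone 0.58, without repeated windows (82 origins) 0.64 and as a median of origins 0.61. Counting each position once gave 0.33.

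In steps of 10 bp, the highest density with VP16 was 2.45 at 70 to 79 bp on the 3′ side, next to 2.36 at 60 to 69 bp. Over the match itself it was 0.63 to 0.66 (untreated 0.84 to 1.07), and from 150 to 199 bp on the 3′ side it was 0.68 to 1.03. Matches elsewhere also had low density at the pattern itself (0.56 to 0.90), so this dip was shared by matches in and outside origins. The pattern allows C at few positions of either strand, and VP16 favours cleavage 3′ of C. The part of base composition in the dip was not tested. Density within 25 bp of the match centre relative to 100 to 300 bp away was 0.06 on the log2 scale untreated and 0.11 with VP16 (difference 0.05, SD 0.13), which did not exceed the spread between replicates.

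**Figure D3:**
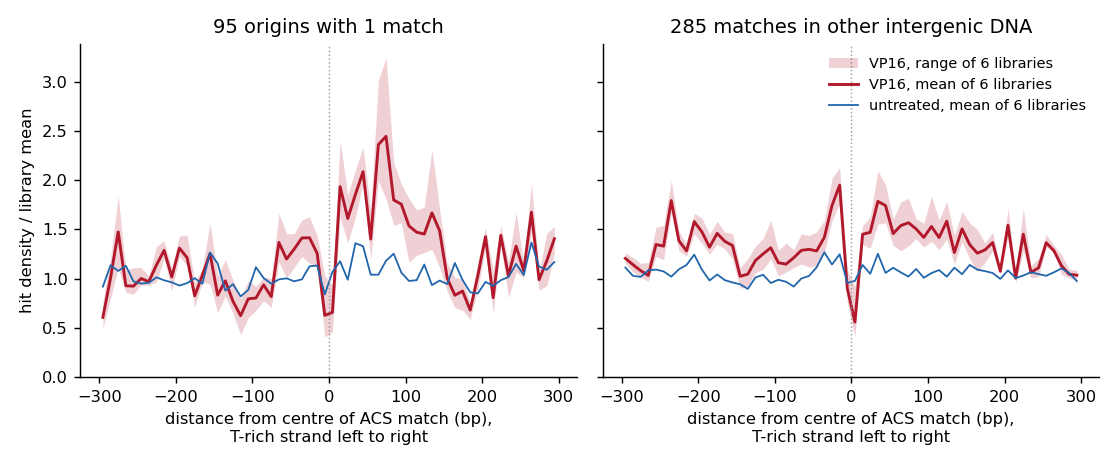
Hit density relative to the library mean in 10 bp steps around the ARS consensus sequence of 95 origins with 1 match and around 285 matches in other intergenic regions, oriented so that the 3′ side of the T-rich strand is on the right, with lines for the mean of 6 libraries (blue untreated, red VP16) and shading for the range of the VP16 libraries. With VP16 the origin curve reaches 2.45 at 70 to 79 bp on the 3′ side and averages 1.06 on the 5′ side.

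Single origins differed in this pattern. Of 91 origins with both sides at least 50% open to mapping, 70 (76.9%) had the higher mean VP16 density on the 3′ side, compared with 56 (61.5%) in untreated cells and 169 of 282 matches elsewhere (59.9%). In all 6 VP16 libraries the 3′ side was denser at 42 origins (46.2%) and in 0 of them at 10 (10.99%), against 29.1% and 21.6% of matches elsewhere. At ARS1, for instance, the mean VP16 density was 0.529 on the 5′ and 1.30 on the 3′ side, from 0.891 and 1.00 untreated. At ARS603.5 it was 0.736 and 3.78, at ARS433 1.76 and 5.28, and at ARS209 1.20 and 1.99, with the 3′ side higher in 6 of 6 VP16 libraries at each of these. ARS603.5 and ARS433 had been picked for a strong site on the 3′ side. The ratio was greatest at ARS901 (0.785 and 8.42). It was smallest at ARS213, where the 5′ side had 2.11 and the 3′ side 0.700. ARS901 and ARS213 were named for these values.

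To find which origins changed with VP16, hits in 500 bp windows over the genome were compared with edgeR's quasi-likelihood test, with strain as a term and Benjamini-Hochberg adjustment over 22174 windows. Of the 313 origins, 166 (53%) rose and 34 (10.9%) fell at an adjusted p under 0.05. Among all windows tested, most of them in reading frames, 31.8% rose and 33.5% fell, while among 5184 intergenic windows 62.9% rose and 10.9% fell. These intergenic windows were tiles on a fixed grid with most of their bases outside reading frames. They were distinct from the midpoint-centred windows used above. The median log2 change was 0.35 at origins, 0.50 in intergenic windows and -0.04 over all windows. At this width origins rose more often than the average window and less often than intergenic DNA. In windows of 200 bp the order of origins and these grid tiles turned. There 171 origins (54.6%) rose and 26 (8.31%) fell, against 53.3% and 11% of intergenic and 27.1% and 27.4% of all windows. Medians were 0.54 at origins and 0.50 in intergenic tiles. Against midpoint-centred intergenic windows, the VP16 density of origins stayed lower near the midpoint. It was 1.73 against 1.90 in the 50 bp left of it and 1.51 against 1.94 in the 50 bp right of it. Changes are relative to the other windows of a library. With total nuclear hits as library sizes 129 origins (41.2%) rose and 54 (17.3%) fell, against 53.5% and 15.7% of intergenic and 24.7% and 42.9% of all windows, whose median was then -0.20. With sizes set by the study's spike-in factors 302 (96.5%) rose and 1 (0.319%) fell, against 96.2% and 0.0579% of intergenic and 87.3% and 0.0722% of all windows, whose median was 1.24. On that scale most windows of every kind rose, so these shares can hardly differ. The median log2 change was then 1.59 at origins and 1.77 in intergenic windows.

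The 6 libraries of a treatment were not fully independent, since same-numbered libraries of different strains deviated together. With hits summed over the 3 strains for each treatment and number, an alternative added after seeing the data (2 sums against 2), edgeR called 139 origins higher (44.4%) and 24 lower (7.67%). In that fit 57.3% and 8.01% of intergenic windows and 27.4% and 26.3% of all windows passed. All 163 were among the 200 called with 12 libraries, in the same direction.

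The direction held in all 6 same-numbered pairs for 122 of the origins that rose (39% of the origins, against 25.3% of all and 51.8% of intergenic windows) and 25 of those that fell (7.99%, against 24.2 and 7.52%). The untreated and VP16 libraries did not overlap in scaled hits at 89 origins higher with VP16 (28.4%, against 18.3% of all and 39.6% of intergenic windows) and 13 lower (4.15%, against 14.5 and 4.42%). On the study's calibration, the mean density at origins went from 120 to 247 in pdr1 and from 128 to 402 in pdr1sae2. In pdr1mre11 it went from 151 to 862. The unit is hits per kb per 1000000 hits of the library, multiplied by the spike-in factor. That factor, shared by all windows of a group, went from 1.36 to 2.19, 1.52 to 3.63 and 1.69 to 7.69 in these strains. No test was made, since the replicates of a group share 1 factor.

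**Figure D4:**
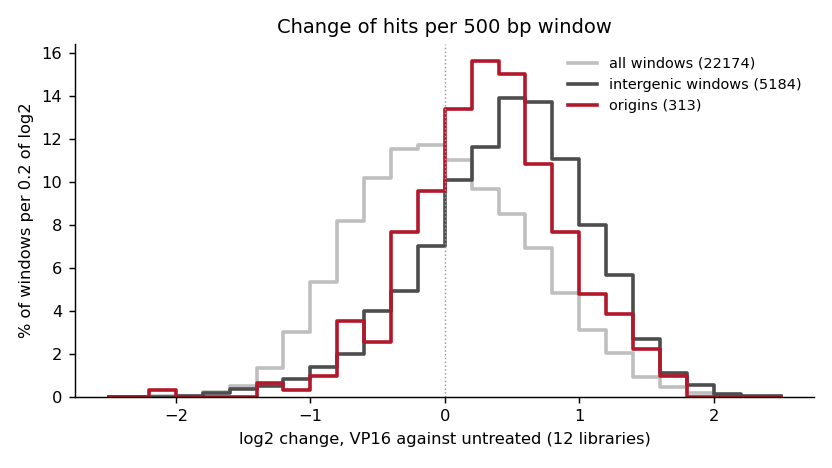
Distribution of the edgeR log2 change of hits per 500 bp window with VP16, as a percentage of windows in steps of 0.2, for 313 origins (red), 5184 intergenic windows (dark grey) and all 22174 windows (light grey). The medians are 0.35, 0.50 and -0.04.

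By the genes around them, 81 of 132 origins between tandem genes rose and 10 fell (61.4 and 7.58%, median log2 change 0.44), shares near the 62.9 and 10.9% of intergenic windows. Between convergent genes 56 of 105 rose and 9 fell (53.3 and 8.57%, median 0.35), and between divergent genes 22 of 53 rose and 5 fell (41.5 and 9.43%, median 0.26). Within reading frames 7 of 20 rose and 8 fell (35 and 40%, median 0.07), near the 31.8 and 33.5% of all windows. The differences between these classes were not tested.

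Set against intergenic windows of the same gene arrangement, origins between divergent genes stood lowest. Their relative density with VP16 was 1.03 to 1.19, against a mean of 1.63 in 1327 other divergent windows, and the log2 ratio was -0.77 to -0.40 (mean -0.55) with VP16 and -0.12 on average without. Origins between convergent genes had a mean log2 ratio of 0.11 (0.02 to 0.22) with VP16 and 0.06 without, and those between tandem genes -0.08 and 0.01, or -0.27 and -0.11 without repeated windows. Divergent regions that host an origin were long, with a median of 1304 bp against 364 bp in convergent ones. The part of length in this result was not tested. Across 290 origins of all these arrangements, Pearson's r of the VP16 change with log2 host length was -0.04 and Spearman's rho -0.02, as a description. These values concern the change at origins. They are not a test of length in the density ratio to other divergent windows.

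Along the chromosomes, 23 of 37 origins within 25 kb of a centromere rose and 4 fell (62.2 and 10.8%, median 0.51), close to the 62.9 and 10.9% of intergenic windows. Their density had a mean log2 ratio to other intergenic windows of -0.29 with VP16 and -0.09 without. Within 25 kb of a chromosome end 4 of 24 rose and 9 fell (16.7 and 37.5%, median -0.06). This median was 0.01 without pdr1mre11 VP16 replicate 2 and 0.06 in windows of 1000 bp. There the log2 ratio to other intergenic windows was -0.82 with VP16 (-1.08 to -0.51) and -0.13 without. For the 10 of these origins without repeated sequence it was -0.57 (-0.68 to -0.42), so the low values held outside repeats. The density of those 10 was 1.01 times the genome mean with VP16 and 0.99 untreated. The comparison windows here came from the whole genome. A trait of origins near ends or centromeres thus cannot be told apart from one of other DNA there. Of 50 origins that the annotation calls putative, 20 rose and 15 fell (40 and 30%, median 0.12), and of the 263 others 146 rose and 19 fell (55.5 and 7.22%, median 0.36), where 31.8% of all windows rose and 33.5% fell.

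Among the 6 long-studied origins, changes were small. Levels are given as HpM, hits in the 500 bp window per 1000000 hits of the library size after TMM scaling. ARS1 (chromosome IV, 462567 to 462622, between TRP1, of tryptophan synthesis, and GAL3, a galactose sensor) had 34.2 to 43.4 HpM untreated (median 41.1) and 37.4 to 62.1 with VP16 (median 46.7). The treatments overlapped, and the edgeR log2 change was 0.25 (SE 0.13, adjusted p = 0.0844). ARS606 (chromosome VI, between MIC19 and DCV1) went from 28.0 to 57.1 (median 38.0) to 45.1 to 73.7 (median 50.6) and rose by 0.48 (edgeR SE 0.15, adjusted p = 0.00549).

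ARS522 (chromosome V), beside the meiotic recombinase gene DMC1, had medians of 38.5 and 49.1 and rose by 0.34 (edgeR adjusted p = 0.0272), a call lost when any 1 of 3 libraries was left out, with total hits as library sizes, with windows of 200 bp and with hits summed over strains. ARS209, beside the histone H4 gene HHF1, ARS607 and ARS603 had log2 changes of 0.30, 0.17 and 0.14, with edgeR adjusted p of 0.0742, 0.291 and 0.439. For ARS606 the call was lost without replicate 1 of untreated pdr1mre11 (adjusted p = 0.0745). In windows of 1000 bp ARS1 was lower with VP16 (-0.29, edgeR adjusted p = 0.0102), in contrast to the 500 bp window.

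Rises were up to 3.17-fold in the edgeR fit. ARS1324 (chromosome XIII, 634501 to 634588), in the 216 bp between the Hsp90 chaperone gene HSC82 and YMR187C, had 46.4 to 78.2 HpM untreated (median 54.1) and 151 to 235 with VP16 (median 173), a log2 change of 1.66 (edgeR SE 0.15, adjusted p = 9.39e-12). ARS603.1 (chromosome VI), between GNA1, of UDP-N-acetylglucosamine synthesis, and the mitochondrial chaperone gene MDJ1, went from a median of 37.4 to 108. ARS211 (chromosome II), between TCM62 and the meiotic phosphatase regulator GIP1, went from 36.5 to 116. The groups were far apart at each of these, with the lowest VP16 library above the highest untreated one.

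ARS1323 (chromosome XIII), inside the small reading frame YMR175W-A, rose from a median of 49.4 to 149 HpM, and ARS519 (chromosome V) from 59.5 to 166, with log2 changes of 1.54 and 1.52 (edgeR adjusted p = 3.03e-11 and 4.08e-10). ARS519 adjoins a transposon reading frame, YER138C, and only 409 of its 500 bp were open to mapping. All 5 of these origins had no repeated sequence in their windows.

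**Figure D5:**
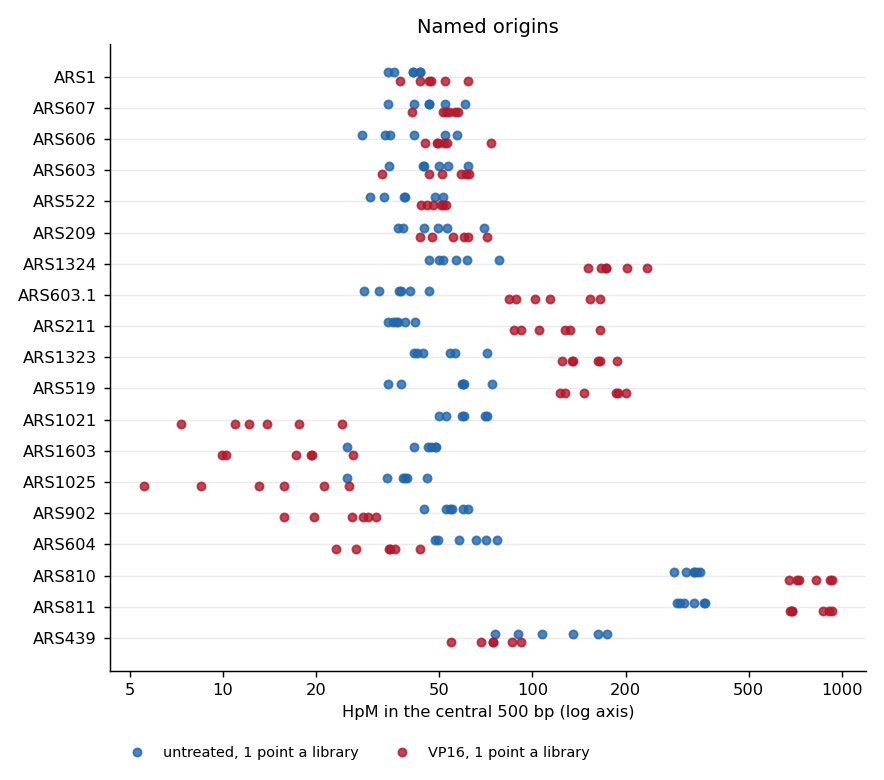
HpM in the 500 bp window of each named origin in every library, on a log axis, for untreated (blue) and VP16 (red) libraries. At ARS1021 the VP16 libraries lie at 7.31 to 24.2, below the untreated ones at 49.9 to 71.5, and at ARS1324 they lie at 151 to 235, above 46.4 to 78.2.

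The largest fall stood apart from the rest. ARS1021 (chromosome X, 684009 to 684098), between the divergent genes MET5, a sulfite reductase subunit, and IML1, of TORC1 control, had 49.9 to 71.5 HpM untreated (median 59.7) and 7.31 to 24.2 with VP16 (median 13.01). The log2 change was -2.13, or 4.38-fold lower in the edgeR fit (SE 0.17, adjusted p = 1.48e-12), with no overlap between treatments, in a window without repeated sequence. It was also the origin that remained lower under the spike-in library sizes.

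The next falls were ARS1603 (chromosome XVI), ARS1025 (chromosome X) and ARS902 (chromosome IX), at -1.37, -1.37 and -1.18. All 3 lay within 25 kb of a chromosome end, with 92, 92 and 100% of their windows in repeated sequence, where the placing of reads is uncertain. ARS604 (chromosome VI), inside the proteasome activator gene BLM10, had no repeats and fell from a median of 61.8 to 34.5 HpM (log2 change -0.97, edgeR adjusted p = 5.45e-07). In windows of 200 bp its change was 0.09 (edgeR adjusted p = 0.709).

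By level, ARS810 and ARS811 exceeded every other origin. They lie on chromosome VIII in the tandem array of the metallothionein gene CUP1, and the windows are wholly repeated sequence, so the hits of all copies of the array in these cells are spread over the copies in the reference. The number of copies in these cells is not given in the sources used here, and neither window is a level of 1 copy. ARS810 had 287 to 348 HpM untreated and 678 to 927 with VP16, and ARS811 had 294 to 361 and 680 to 931. Their mean was 7.70 times the median origin untreated and 15.1 times with VP16, and both rose (log2 change 1.30 and 1.29, edgeR adjusted p = 7.21e-08 and 8.98e-08). The pair took 4.56% of hits in origin windows untreated and 8.10% with VP16. The third highest with VP16 was ARS1324. Untreated it was ARS439 (chromosome IV), a putative origin between the ubiquitin ligase gene TOM1 and HEH2, which fell from a median of 121 to 74.6 (-0.71, edgeR adjusted p = 0.000187).

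Single sites within origins were strong in a few places. Here hits of both strands are given per 1000000 hits of the library, unscaled. The site of ARS1617 (chromosome XVI, 331853 to 331856) had 82.0 to 128 HpM with VP16 (mean 105) and 4.78 to 39.8 untreated (mean 18.6), with C 5′ of the cut on both strands. The next 4 were sites of the CUP1 array, with 105, 104, 50.1 and 49.2 HpM. The strongest of the array, the same sequence in ARS811 and ARS810, had A and T 5′ of its cuts, not C, and 1.13 and 1.37 HpM untreated. Outside repeated sequence the following sites were in ARS414 (35.0), ARS729 (33.8), ARS921 (30.2) and ARS603.1 (29.1), which were named after their values had been seen. Of the 20 strongest sites outside repeats, which fell in 20 origins, 10 had C 5′ of both cuts, 10 of 1 cut and 0 of neither. Of these sites 5 were in origins with a single consensus match, 4 on its 3′ side and 1 on its 5′ side. The 4 lay 37.5, 48.5, 134.5 and 142.5 bp from the match centre, and the other, in ARS213, lay far off at -789.5 bp.

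Strains were compared next, to see whether loss of Sae2 or Mre11 altered the distribution over origins. With VP16 the log2 HpM of the 313 origins were alike between strains (Pearson's r 0.92 to 0.95 and Spearman's rho 0.89 to 0.93 between group means) and between replicates (0.85 to 0.91). In untreated cells r was 0.79 to 0.82 and rho 0.48 to 0.55 between strains, and r was 0.59 to 0.64 between replicates, and the CUP1 windows enter each of these values. VP16 also widened the range over origins, with the upper quartile 1.62 to 2.09 times the lower in VP16 libraries and 1.27 to 1.37 times untreated.

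No origin passed edgeR's test between strains, where 0.00451% of all windows passed for pdr1sae2 against pdr1 with VP16, 0.0316% for pdr1mre11 with VP16, and 0.00902% and 0.018% untreated. At an unadjusted p under 0.05 in edgeR's fit the counts were 7 origins (2.24%, all windows 2.15%), 27 (8.63%, all windows 7.67%), 4 (1.28%, all windows 0.446%) and 8 (2.56%, all windows 3.32%), and DESeq2 called 0 in each, with no adjusted p for 252 origins in untreated pdr1mre11 against pdr1. With 2 libraries a group, differences of small size would not be detectable.

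Tested within each strain, VP16 raised 98 origins (31.3%) and lowered 10 (3.19%) in pdr1, with all windows at 18.1% and 13.3%. In pdr1sae2 it raised 88 (28.1%) and lowered 14 (4.47%), with all windows at 15% and 10.3%. In pdr1mre11 it raised 111 (35.5%) and lowered 27 (8.63%), with all windows at 22.8% and 22%. Of 5184 intergenic windows, 2218 rose and 199 fell in pdr1, 1768 and 176 in pdr1sae2, and 2566 and 391 in pdr1mre11. The difference in response from pdr1 passed edgeR's test at 0 origins and 0 windows in either strain, with 2 and 9 origins at an unadjusted p under 0.05 (0.639 and 2.88%, all windows 1.1% and 2.87%). The unequal counts between strains were therefore not shown to be a difference in response.

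Strand and surroundings were examined last. Ends pointing outward from the midpoint (Watson hits to the right, Crick hits to the left) made up 49.1 to 51.1% of hits within 1000 bp of origins untreated and 48.2 to 51.5% with VP16, with a mean difference of 0.02 percentage points (SD 1.08) and 3 of 6 pairs higher. Reading frame bases within 5 kb of an origin had a log2 density ratio to those over 10 kb away of 0.04 untreated and 0.05 with VP16, and the difference of 0.01 was no larger than the spread between replicates (SD 0.01). For reading frame bases within 2 kb of an origin the difference was 0.04 (SD 0.01).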

How the data were processed

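The 12 maps held counts of 5′ DNA ends per position and strand, which the authors made by aligning read pairs with Bowtie2 (version not given in the sources used here) to Cer3 with added his4::LEU2 and leu2::hisG sequence, and from which they removed retrotransposons, telomeres and rDNA. Pairs that map equally well to several places were kept. The deposited calibration table gave 1 spike-in ratio per group. Pooled maps were not used.

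No hit lay beyond the R64 length of any chromosome used, and C stood 5′ of 60.3 to 61.7% of VP16 hits on each. Runs of at least 100 bases without a hit in any library (4.41%) were masked. Repeated sequence was a 40-mer found more than once in the genome. Windows were fitted with edgeR 4.0.16 (TMM, quasi-likelihood) in R 4.3.3, with DESeq2 1.42.0 as an alternative. Simulated counts for the VP16 comparison over 22174 windows recovered 46% of changes of 1.5-fold and 99% of 2-fold (48 and 99% with hits summed over strains). The simulation changed 200 windows, far fewer than the real fit called, and drew libraries independently. Its shares therefore do not give the power of the real fit. Hits are reads without molecular identifiers, so counting error is understated. Levels of windows (HpM) are hits per 1000000 of the TMM-scaled library size. P-values measure the spread between these cultures.

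Origins named in the text are 6 long-studied ones (ARS416 is annotated as ARS1), the 5 with the largest rise and the 5 with the largest fall called with 1 direction in 6 pairs, the 3 with most hits in each treatment and the holders of the 5 strongest sites. Others were named after their values were seen. The origins, windows and lists were chosen with earlier results of these data known. Same-numbered untreated and VP16 libraries did not deviate together (correlations of deviations over windows 0.07, 0.09 and -0.16 in pdr1, pdr1sae2 and pdr1mre11), and replicate numbers were not used as pairs in the test. Same-numbered libraries of different strains did deviate together within a treatment (0.33 to 0.43 untreated, 0.17 to 0.27 with VP16), so an alternative summed hits over strains by number.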

Additional observations from a re-analysis of the deposited data

How the results depend on the processing

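In windows of 200 bp origins rose slightly more often than intergenic windows, not less often as at 500 bp. These intergenic windows were grid tiles not centred on a midpoint. In VP16 libraries the log2 ratio of origins to other intergenic DNA was -0.051 with 500 bp on both sides, -0.31 as a median of windows and -0.29 with regions of at least 500 bp weighted by gene arrangement, the last added after seeing the data. With each position counted once, the VP16 minus untreated difference was 0.28 for centre against flank, 22.8 percentage points for the C share and 0.33 for the sides of the consensus match (0.41 for VP16 libraries alone). For reading frames within 2 kb it was 0.038. With total nuclear hits as library sizes 54 origins fell, and with spike-in sizes 303 changed, 302 up and 1 down. DESeq2 called 160 up and 30 down.

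The fit with a replicate block called 170 up and 39 down, and 0 between strains. ARS1 was then past the threshold (0.29, edgeR adjusted p = 0.0422). The numbers do not pair untreated with VP16 libraries, but same-numbered libraries of different strains deviated together within a treatment. With hits summed over strains 163 of the 200 calls held and 0 turned, and ARS522 was no longer past the threshold (0.32, edgeR adjusted p = 0.131).

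Leaving out 1 library gave 185 to 206 origins changed (148 to 174 up, 27 to 39 down), 181 to 198 of the 200 calls kept and 0 turned. The ranges were -0.20 to -0.13 for the difference of origins from other intergenic DNA, 0.49 to 0.61 for centre against flank and 0.56 to 0.63 for the consensus sides.

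The median of origins in reading frames turned to -0.086 with total hits. That of origins near a chromosome end turned to 1.20 with spike-in sizes, and to 0.059 in 1000 bp windows and to 0.012 without pdr1mre11 VP16 replicate 2. In 1000 bp windows ARS1 turned to -0.29, ARS607 to -0.16 and ARS603 to -0.065. ARS603 also turned to -0.027 with total hits and -0.0083 without pdr1 untreated replicate 1, the lowest value on leaving out 1 library (highest 0.31). ARS604 turned to 0.089 in 200 bp windows. With spike-in sizes ARS902, ARS604 and ARS439 turned to 0.12, 0.35 and 0.58. That scaling moved the median of all windows from -0.04 to 1.24, and these values and that of origins near a chromosome end lie below it. Total hits moved it to -0.20. The causes of the other turns were not tested.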
